A study of Mus musculus with 16 samples.

Results

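The genes described here encode the subunits of voltage-gated sodium and calcium channels, in the cerebral cortex of mice lacking Fmr1, Cpeb1 or both. They were taken by name from the deposited gene tables: every gene whose symbol starts with Scn, a number and a or b, or with Cacna, Cacnb or Cacng and a number. The rule found 40 genes of the 20436 listed, 14 for sodium channels and 26 for calcium channels. By role they fall into 10 sodium channel alpha subunits, 4 sodium channel beta subunits, 10 calcium channel alpha1 subunits, 4 alpha2delta subunits, 4 beta subunits, and 8 subunits of the gamma family, most of which are AMPA receptor partners known as TARPs. No measured value entered the naming rule, but the set was chosen with earlier results of these data known.

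Cytoplasmic lysates of cortex were split into one share for RNA-seq and one for ribosome profiling, which sequences the RNA fragments that ribosomes protect from nuclease (footprints). There were 4 genotypes: wild type (WT), Fmr1 knockout, Cpeb1 knockout and the Fmr1/Cpeb1 double knockout. Each genotype had 2 libraries per assay, 16 in all. Every mouse was at postnatal day 28 to 35, and both hemispheres were used. All groups, WT included, carried the strain background given as FVB.129P2-/Pde6b+ Tyrc-ch //AntJ, and all lysates were made in buffer with cycloheximide and harringtonine, which arrest ribosomes. The alleles are not given in the sources used here. The labels number the 2 libraries of a group without stating that these came from separate animals, so every p-value below measures the spread between these libraries, which may be technical.

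Voltage-gated sodium channels open on depolarisation and carry the rising phase of the action potential. Each has a large pore-forming alpha subunit and small beta subunits, which adjust gating and adhere to neighbouring proteins. Voltage-gated calcium channels have a pore-forming alpha1 subunit, an extracellular alpha2delta subunit and a cytoplasmic beta subunit, which together set trafficking and gating; they start transmitter release at terminals, shape dendritic signals and link activity to transcription. The TARPs of the gamma family mainly bind AMPA receptors, which they carry to synapses and whose kinetics they tune. Fmr1 encodes FMRP, the RNA-binding protein lost in fragile X syndrome, and Cpeb1 encodes a protein that controls polyadenylation of cytoplasmic mRNA.

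The 40 genes are spread over 12 chromosomes of the mouse genome (GRCm38.p6, from RefSeq, the assembly that the submitters call mm10), and several sit side by side. Scn3a, Scn2a1 (Scn2a in RefSeq), Scn1a, Scn9a and Scn7a follow each other on chromosome 2 between 65457118 and 66784910, and Scn2b and Scn4b are neighbours on chromosome 9. Cacng7, Cacng8 and Cacng6 lie within 3332027 to 3435667 of chromosome 7. Promoters of 3 calcium channel genes whose RNA differed together below, and of Scn1a, whose footprints differed, are printed here from RefSeq, 5′ to 3′ along the gene's strand, from 250 bases before the annotated start to 50 after it. Capitals mark the GC box, the letters GGGCGG read on either strand.
Cacng7 (chr7:3332575-3332874, plus strand): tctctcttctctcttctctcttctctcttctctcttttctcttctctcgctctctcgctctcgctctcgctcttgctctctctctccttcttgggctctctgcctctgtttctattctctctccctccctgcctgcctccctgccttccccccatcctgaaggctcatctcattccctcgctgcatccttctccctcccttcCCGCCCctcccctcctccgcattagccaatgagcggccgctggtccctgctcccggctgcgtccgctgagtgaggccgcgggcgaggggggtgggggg
Cacng8 (chr7:3393792-3394091, plus strand): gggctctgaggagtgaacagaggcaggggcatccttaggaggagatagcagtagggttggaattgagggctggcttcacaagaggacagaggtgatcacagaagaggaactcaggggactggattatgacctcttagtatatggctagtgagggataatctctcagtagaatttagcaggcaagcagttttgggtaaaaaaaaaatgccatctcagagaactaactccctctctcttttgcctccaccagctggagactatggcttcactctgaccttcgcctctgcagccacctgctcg
Cacnb3, the upstream of its 2 windows (chr15:98632078-98632377, plus strand): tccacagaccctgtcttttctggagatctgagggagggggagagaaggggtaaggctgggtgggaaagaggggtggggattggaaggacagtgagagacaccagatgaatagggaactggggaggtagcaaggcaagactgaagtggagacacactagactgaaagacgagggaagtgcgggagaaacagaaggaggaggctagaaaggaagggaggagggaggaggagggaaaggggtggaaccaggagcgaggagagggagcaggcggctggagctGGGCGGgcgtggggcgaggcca
Scn1a (chr2:66440788-66441087, minus strand): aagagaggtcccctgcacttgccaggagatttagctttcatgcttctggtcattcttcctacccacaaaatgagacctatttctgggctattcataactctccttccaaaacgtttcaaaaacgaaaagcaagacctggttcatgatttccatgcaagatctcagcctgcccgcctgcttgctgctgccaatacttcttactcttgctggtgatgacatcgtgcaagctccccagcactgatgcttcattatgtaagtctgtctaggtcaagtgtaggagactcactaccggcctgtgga

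The printed promoters differ in composition, with 62.0% G or C for Cacng7, 59.7% for this window of Cacnb3, 50.0% for Cacng8 and 47.3% for Scn1a. A GC box was present in the windows of Cacng7 and Cacnb3 and absent from those of Cacng8 and Scn1a. RefSeq start windows were matched for 30 of the 40 genes, 41 windows in all. No window was matched for Cacna1a, Cacna1g or Cacna1h, whose RNA was also lower in the single knockouts. GC boxes were found on either strand in 35.7% of all 32851 promoter windows of the same length. They were found in 4 of the 8 windows of 6 calcium channel genes whose RNA was lower in the single knockouts. The counts were 10 of the 19 windows of other calcium channel genes tested and 1 of the 9 of sodium channel genes tested. These are descriptions of letters in a window and not of sites in use.

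Whole-library facts were as follows. RNA libraries held 5423919 to 10246479 counts and footprint libraries 16239479 to 24973462, of which the 40 genes took 0.587% to 0.671% and 0.279% to 0.323%. Fmr1 RNA was 18.4 to 25.9 CPM, counts scaled to a common library size, in libraries labelled as lacking Fmr1 against 87.0 to 116 in the others, and Cpeb1 RNA 16 to 19.7 CPM in those labelled as lacking Cpeb1 against 27.6 to 43.9, so each library matched its label. The cortex label fits the 5 of 5 markers of cortical excitatory neurons, whose summed RNA was 1545 to 2080 CPM. All 8 markers of striatal projection neurons were detected too, with sums of 315 to 795 CPM. After the filter on low counts, 34 of the 40 genes could be tested in RNA and 37 in footprints. Scn4a, Scn10a, Scn11a, Cacna1f, Cacng1 and Cacng6, at 0.014, 0.084, 0.162, 0.195, 0.406 and 0.956 TPM in RNA (transcript abundance scaled for length and depth), failed it in RNA, and Scn4a, Cacna1f and Cacng1 also failed it in footprints.

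Levels of different genes are compared per length, as deposited TPM, given as the mean ± SD of all 8 libraries of an assay. Among pore-forming sodium subunits, Scn2a1, the main channel of excitatory axons in young cortex, reached 247 ± 16.4 TPM and Scn8a, which concentrates at the axon initial segment and nodes, 169 ± 20.9. Scn1a, which is prominent in inhibitory interneurons, stood at 112 ± 11.8 and Scn3a, the mainly embryonic form, at 32.9 ± 1.62. The lowest library of Scn2a1 was above the highest of Scn8a. The peripheral form Scn9a and the atypical sodium-sensing form Scn7a, at 2.89 and 2.80 TPM, lay within each other's spread. Of the beta subunits, Scn2b was at 205 ± 16.7, Scn4b at 159 ± 44.3 and Scn3b at 101 ± 13.4, so that Scn2b and Scn4b could not be ranked beyond their spread.

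Among calcium channel pores, Cacna1e, the R-type channel, was the most abundant at 131 ± 14.5 TPM. The N-type Cacna1b and the P/Q-type Cacna1a, both channels of presynaptic terminals, followed at 70.9 ± 10.9 and 67.0 ± 16.6 and overlapped. The low-voltage T-type pores were at 49.9 for Cacna1i, 29.0 for Cacna1g and 17.5 for Cacna1h, and the L-type pores at 38.8 for Cacna1c and 24.9 for Cacna1d. The skeletal muscle form Cacna1s was at 0.336. The beta subunit Cacnb4 was at 235 ± 11.7, ahead of Cacnb3 at 148 ± 34, Cacnb1 at 108 ± 16.8 and Cacnb2 at 33.2. The alpha2delta subunits, targets of gabapentin-type drugs in the case of Cacna2d1 and Cacna2d2, ran from Cacna2d1 at 164 ± 15.3 through Cacna2d3 at 107 and Cacna2d2 at 18.1 to Cacna2d4 at 0.800. The TARPs Cacng8, Cacng7, Cacng3, Cacng2, Cacng4 and Cacng5 had 117, 99.2, 84.5, 41.7, 24.6 and 9.93 TPM, of which the first 3 overlapped.

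The order changed in footprints, where the small subunits led. Scn2b had 242 ± 13.2 and Scn4b 229.7 ± 32.8 footprint TPM, the highest of all 40 genes, against Cacnb1 at 118 and Cacnb4 at 113. The pore genes Scn2a1, Cacna1e, Scn8a and Scn1a had 57.7, 50.8, 43.9 and 17.1. The log2 ratio of footprint to RNA TPM, averaged over the 4 genotypes, had a median of -2.10 over the 7 sodium alpha genes tested and -2.32 over the 9 calcium alpha1 genes. It was 0.041 over the 4 sodium beta genes, -0.68 for alpha2delta, -0.99 for calcium beta and -1.04 for the gamma family. All 16 pore genes tested lay below the median of all genes tested, -0.63, against 10 of the 18 auxiliary subunits. Scn4b was at 0.57.

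The pores tested also have the longest coding sequences of these genes, with medians of 5934 nt for sodium alpha and 6772 nt for calcium alpha1 against 1434 nt over all genes. Among the 580 tested genes with a coding length of 5000 nt or more, the median log2 ratio was -1.70, and among the 8921 under 2000 nt it was -0.39. Set against the long genes, 13 of the 16 pores were still lower, and 2 of the 18 auxiliary genes were. The part of length in these ratios was not tested further. TPM was scaled within each assay, so a ratio ranks genes and is not an absolute number of ribosomes, and genes are not replicates of each other.

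**Figure D1:**
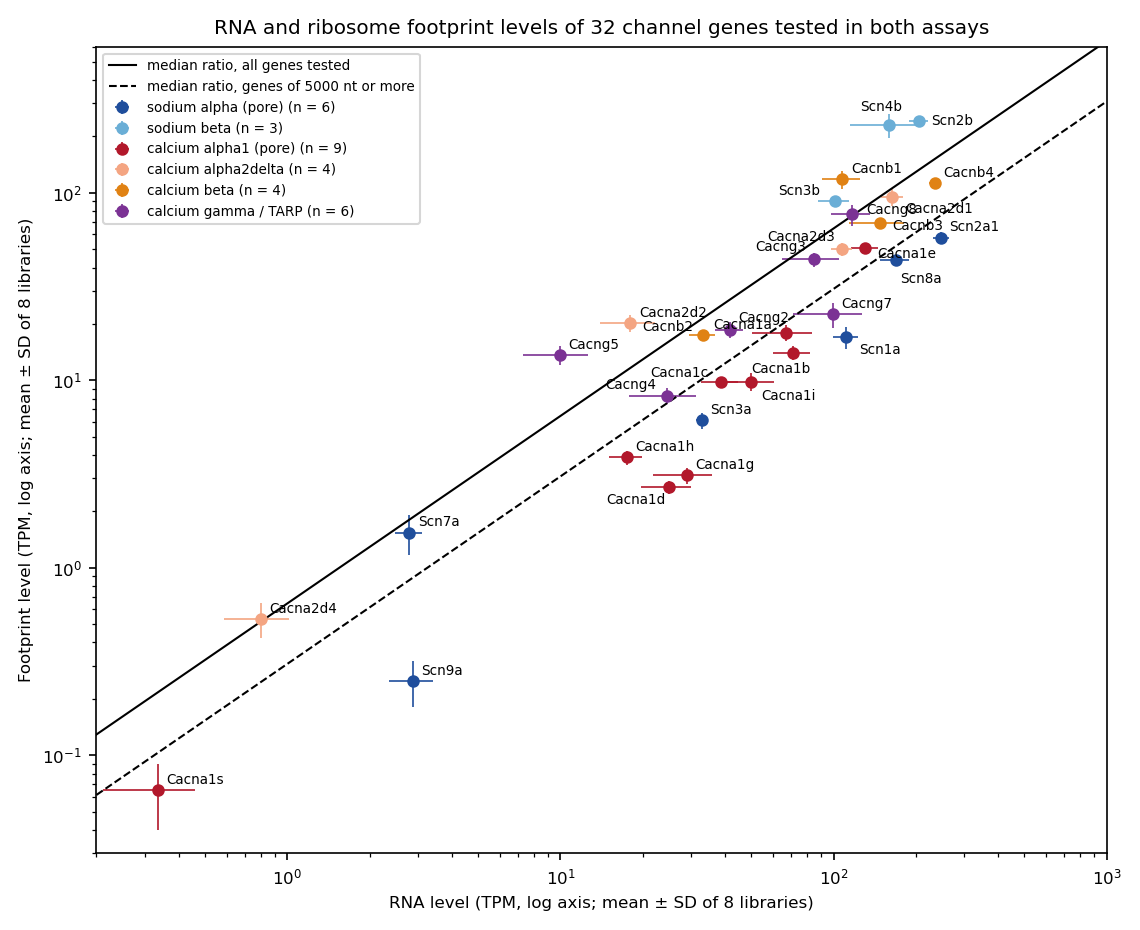
RNA level (x axis, TPM, log scale) against footprint level (y axis, TPM, log scale) of 32 of the 34 channel genes tested in both assays. Points are means and bars SD of 8 libraries, colours are subunit roles, and the lines mark the median footprint-to-RNA ratio of all genes tested (solid) and of genes of 5000 nt or more (dashed). The pore genes (dark blue, dark red) lie below the solid line, with Scn2b and Scn4b at the top.

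Part of the calcium channel RNA was lower in the 2 single knockouts than in the other 2 genotypes, while no sodium channel RNA was called in the same fit. The comparison sets the 4 RNA libraries of the Fmr1 and Cpeb1 knockouts against the 4 of WT and the double knockout. The authors also deposited this pooling. The comparison asks which transcripts differ between 1 missing gene and 0 or 2, and does not test the double knockout against WT. Of the 23 calcium channel genes tested, 9 fell and 0 rose by edgeR's quasi-likelihood test, with Benjamini-Hochberg adjustment over all genes and a threshold of 0.05. These 9 calls rest on a fit with replicate number as a term: without it edgeR called Cacna1a and Cacna1i alone, and with the 4 genotypes as separate groups it called Cacng3 and Cacng7 alone. None of the 11 sodium channel genes was called by DESeq2, or by edgeR in the fit that gave the 9 calls. Under some other settings, which kept the replicate term, edgeR did call sodium genes. It called Scn4b lower with no filter on low counts, at -0.40 (adjusted p = 0.0376), and without Fmr1 knockout replicate 2, at -0.63 (adjusted p = 0.0311). With a correction for gene length, edgeR called Scn2a1 higher, at 0.28 (adjusted p = 0.0161). Over all 13287 genes, 7.31% were called, 5.09% lower and 2.22% higher. The median log2 change was -0.30 over the calcium genes, 0.091 over the sodium genes and 0.026 over all genes, and 20 of the 23 calcium genes but 3 of the 11 sodium genes had a value below 0. Leaving out 1 library gave sodium medians of 0.030 to 0.099. In tissue, fewer cells of a type and less RNA per cell cannot be told apart.

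The called pore genes were the P/Q-type Cacna1a and all 3 T-type genes. RNA of Cacna1a, which drives transmitter release at many central synapses, was 396 and 357 CPM for WT, 446 and 343 for the double, 259 and 299.9 for the Fmr1 and 219 and 307 for the Cpeb1 knockout. Its 4 single-knockout libraries were all below the other 4, and the log2 change was -0.51 ± 0.11 (SE, adjusted p = 0.0155) by edgeR. The T-type channels open near rest and support burst firing. Cacna1i was 281 and 253 CPM for WT, 286 and 228 for the double, 179 and 211 for the Fmr1 and 171 and 227 for the Cpeb1 knockout, again without overlap. Its log2 change was -0.42 ± 0.10 (SE, adjusted p = 0.0243). Cacna1g was 159.6 and 156 CPM for WT, 188 and 136 for the double, 102 and 129 for the Fmr1 and 99.1 and 138 for the Cpeb1 knockout. Here Cpeb1 knockout replicate 2 reached the level of double knockout replicate 2, and the change was -0.46 ± 0.12 (SE, adjusted p = 0.0301). Cacna1h was 96.2 and 91.8 CPM for WT, 95.9 and 83.4 for the double, 74.6 and 77.9 for the Fmr1 and 73.5 and 70.0 for the Cpeb1 knockout, with no overlap and a change of -0.31 ± 0.079 (SE, adjusted p = 0.0294). All 9 alpha1 genes tested had values below 0, from -0.51 to -0.14. The N-type Cacna1b came closest among those not called, at 409 and 349 CPM for WT, 411 and 338 for the double, 297 and 341 for the Fmr1 and 304 and 312 for the Cpeb1 knockout. Its change was -0.26 ± 0.082 (SE, adjusted p = 0.0623), and Fmr1 knockout replicate 2 lay above double knockout replicate 2. The R-type Cacna1e was 679 and 636 CPM for WT, 672 and 618 for the double, 545 and 643 for the Fmr1 and 538 and 653 for the Cpeb1 knockout, with overlapping groups and a log2 change of -0.14 ± 0.079 (SE, adjusted p = 0.287). The L-type Cacna1d and Cacna1c and the muscle form Cacna1s had values of -0.33, -0.21 and -0.26 and were not called.

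Among the beta subunits, which chaperone the pores to the membrane, Cacnb3 and Cacnb1 fell. Cacnb3 was 148 and 176 CPM for WT, 168 and 181 for the double, 107 and 137 for the Fmr1 and 97.5 and 160.0 for the Cpeb1 knockout. Cpeb1 knockout replicate 2 overlapped the higher group, and the log2 change was -0.45 ± 0.092 (SE, adjusted p = 0.0135) by edgeR. Cacnb1 was 137 and 137 CPM for WT, 139 and 148 for the double, 111 and 119 for the Fmr1 and 96.2 and 117 for the Cpeb1 knockout, with every single-knockout library below the other 4 and a change of -0.34 ± 0.077 (SE, adjusted p = 0.0201). The most abundant beta subunit, Cacnb4, was 253 and 245 CPM for WT, 240.4 and 255 for the double, 239.7 and 241 for the Fmr1 and 239 and 266 for the Cpeb1 knockout, all within the same range, and its value was -0.013 ± 0.069 (SE, adjusted p = 0.927). Cacnb2 had -0.098.

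In the gamma family the called genes were Cacng7, Cacng3 and Cacng8. Cacng7, a TARP of AMPA receptors, had the largest log2 change of the 34 genes tested, -0.59 ± 0.12 (SE, adjusted p = 0.0129) by edgeR. Its RNA was 54.0 and 70.9 CPM for WT, 70.6 and 65.5 for the double, 37.8 and 57.6 for the Fmr1 and 32.1 and 50.1 for the Cpeb1 knockout. The Fmr1 knockout replicate 2 library overlapped WT replicate 1. Cacng3, a TARP of cortical excitatory synapses, was 56.8 and 71.3 CPM for WT, 50.3 and 66.5 for the double, 38.8 and 58.1 for the Fmr1 and 37.1 and 52.9 for the Cpeb1 knockout. The second replicate was the higher one in all 4 genotypes and the groups overlapped, with a change of -0.40 ± 0.087 (SE, adjusted p = 0.0165). Cacng8, the TARP most prominent in forebrain, was 101 and 117 CPM for WT, 105 and 129 for the double, 93.7 and 94.1 for the Fmr1 and 80.1 and 92.5 for the Cpeb1 knockout, without overlap. Its change was -0.32 ± 0.081 (SE, adjusted p = 0.0319). Cacng4, Cacng2 and Cacng5 had values of -0.30, -0.17 and 0.031 and were not called. Cacng2, the stargazin gene, was without overlap all the same, at 24.2 to 27.2 CPM in the single knockouts and 27.3 to 32.3 in the others. In all, 6 of the 34 genes tested did not overlap, each lower, where 12.2% of all genes did not overlap and 6.12% were lower without overlap. Cacng7 and Cacng8 are neighbours on chromosome 7, and the promoters printed above show that of this pair Cacng7 holds the GC box and Cacng8 does not.

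**Figure D2:**
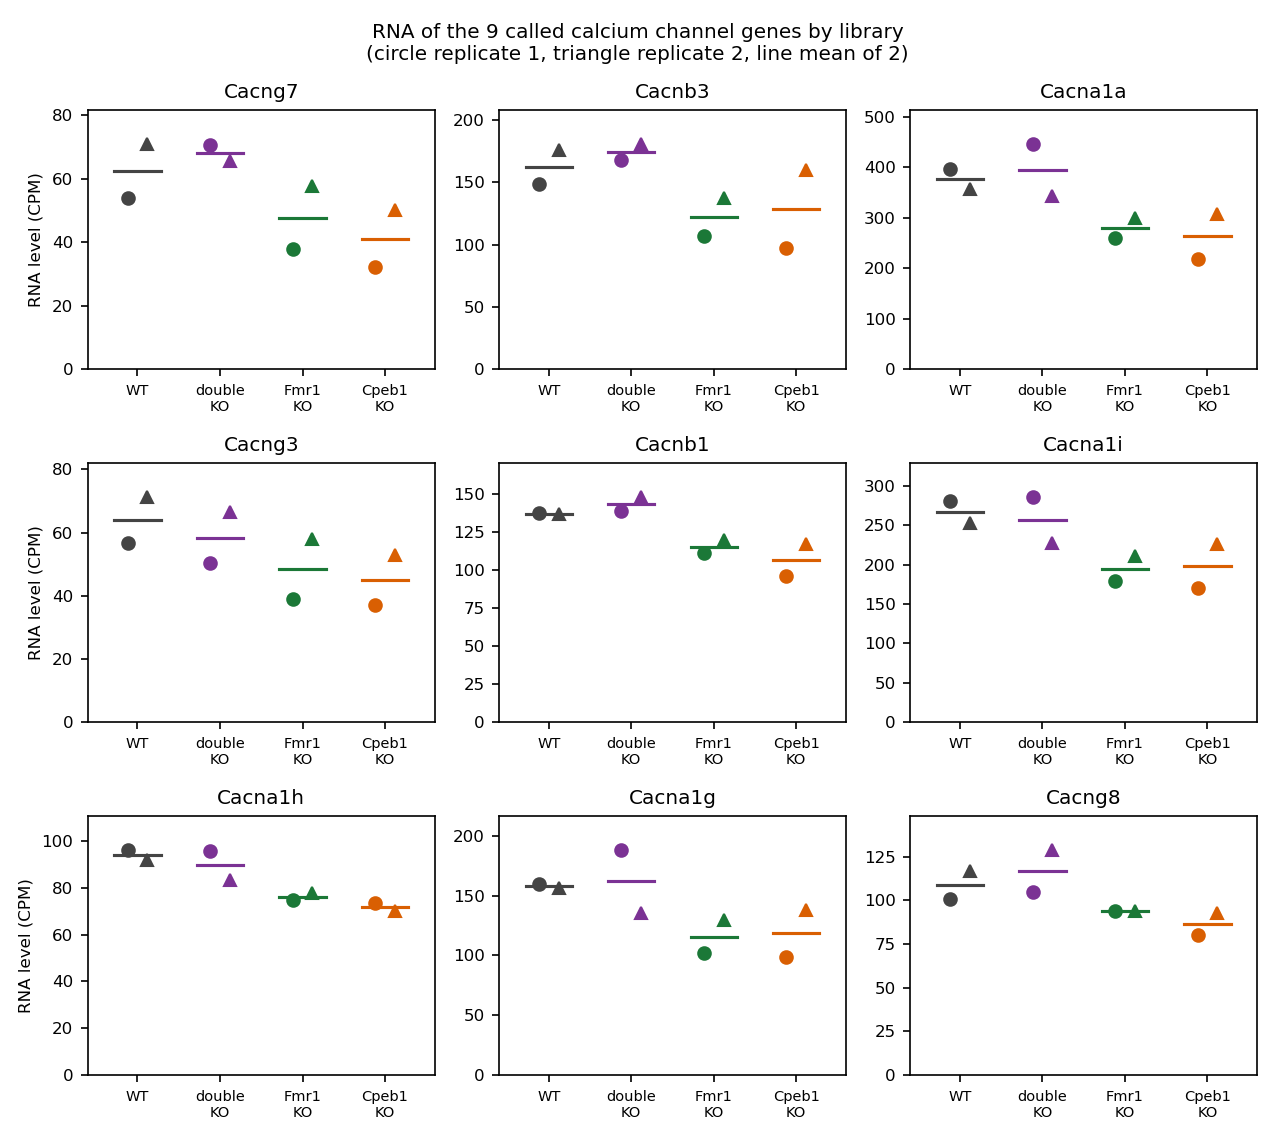
RNA level (y axis, CPM, from 0) of the 9 called calcium channel genes in each of the 8 RNA libraries, by genotype (x axis). Circles are replicate 1, triangles replicate 2 and lines the mean of 2; the Fmr1 and Cpeb1 knockout means are below those of WT and the double knockout in all 9 panels.

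The alpha2delta genes went either way, and none was called. Cacna2d1 was 403 and 369 CPM for WT, 374 and 298 for the double, 373 and 402 for the Fmr1 and 403 and 378 for the Cpeb1 knockout, with overlap and a value of 0.11 ± 0.083 (SE, adjusted p = 0.425) by edgeR. Cacna2d3 was 253 and 225 CPM for WT, 246 and 217 for the double, 282 and 260.5 for the Fmr1 and 267 and 213 for the Cpeb1 knockout, with overlap and a value of 0.12 ± 0.076 (SE, adjusted p = 0.345). Cacna2d2 and Cacna2d4 had -0.30 and -0.22. Among sodium channel genes, Scn2a1 came nearest to a call on the higher side. It was 1054 and 983 CPM for WT, 986 and 907 for the double, 1088 and 1146 for the Fmr1 and 1136 and 1047 for the Cpeb1 knockout, and its value was 0.17 ± 0.069 (SE, adjusted p = 0.137). Its lowest single-knockout library, Cpeb1 knockout replicate 2, lay just under WT replicate 1. Scn8a was 796 and 676 CPM for WT, 799 and 679 for the double, 635 and 717 for the Fmr1 and 608 and 691 for the Cpeb1 knockout, overlapping throughout, with -0.15 ± 0.083 (SE, adjusted p = 0.256). The beta subunit gene Scn2b also overlapped. It was 89.2 and 79.4 CPM for WT, 79.8 and 91.3 for the double, 104 and 92.5 for the Fmr1 and 90.2 and 78.5 for the Cpeb1 knockout, with a value of 0.11 ± 0.092 (SE, adjusted p = 0.495) by edgeR. Scn1a, Scn3a, Scn3b and Scn7a had values between 0.056 and 0.11, Scn9a had -0.16 and Scn4b -0.38.

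The authors' deposited table of the same comparison, read in the order of the groups in its name, lists 10 of these genes as lower at an adjusted p under 0.05 and none as higher, where it calls 13.6% of its genes and 8.98% as lower. All 9 genes named above are among them, the other one being Cacna1b at -0.22 (adjusted p = 0.0102). When the model was extended to correct for gene length, 8 of the 9 calcium genes were called lower, Cacna1h was not, and Scn2a1 was called higher, by 0.28. The median over the 34 channel genes then moved from -0.19 to -0.11, and that of the calcium genes from -0.30 to -0.22.

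The difference was larger among the libraries numbered 1 than among those numbered 2. The calcium gene median of single knockouts minus the others was -0.42 among the 4 libraries numbered 1 and -0.14 among the 4 numbered 2, with 21 and 15 of the 23 genes below 0. For Cacna1a the difference was -0.82 among the libraries numbered 1 and -0.20 among those numbered 2, and for Cacng8 it was -0.24 among the libraries numbered 1 and -0.39 among those numbered 2. Within both sets of libraries, 14 of the 23 calcium genes, 2 of the 11 sodium genes and 27.8% of all genes were lower. All 9 called genes were among these, but they were called from the same libraries, so their agreement is not a replication. Leaving out Fmr1 knockout replicate 1 or Cpeb1 knockout replicate 1 left no channel gene called, although the calcium medians were then -0.30 and -0.23. Without WT replicate 1 there were 3 calls, and without double knockout replicate 1 there were 4. Leaving out a library numbered 2 left 7 to 11.

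Marker sums of several cell types also differed between the single knockouts and the other libraries. The summed RNA of 5 cortical excitatory neuron markers was 1545 to 1805 CPM in the single knockouts and 1905 to 2080 in the other libraries, without overlap, and 2 of the 5 were called. The 5 astrocyte markers summed to 474 to 533 against 371 to 471 CPM, with 1 called, and the 4 endothelial markers to 51.2 to 67.0 against 34.5 to 49.5, with 1 called. Excitatory neuron sums of WT and the double knockout overlapped, at 1905 to 1966 and 1939 to 2080 CPM. For the astrocyte and endothelial lists the double knockout lay between WT and the single knockouts. Astrocyte sums were 371 to 433 CPM for WT and 468 to 471 for the double knockout, and endothelial sums 34.5 to 35.4 and 47.3 to 49.5. Interneuron marker sums overlapped, at 913 to 999 against 869.8 to 988 CPM, with 1 called, as did those of the 8 striatal markers, at 315 to 673 against 579 to 795 CPM, with 1 called. None of these lists had a marker at 0 in all libraries. The part of these cell types in the calcium channel result was not tested.

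Against WT alone, no channel gene was called in RNA in any knockout when all 8 libraries were fitted together. In fits of only the 2 genotypes compared, edgeR called 6 calcium genes lower in the Fmr1 knockout, namely Cacna1a, Cacna1g, Cacna1i, Cacnb3, Cacng3 and Cacng7 (adjusted p = 0.0125 to 0.0374), and Scn4b lower in the Cpeb1 knockout (adjusted p = 0.0344). The 3 comparisons share the WT libraries. In the Fmr1 knockout the calcium gene median was -0.25 and the sodium gene median 0.032. The edgeR test called 0 of the 34 genes, 8 calcium genes were lower at an unadjusted p under 0.05, and DESeq2 also called 0, where edgeR called 0.00753% of all genes and 4.97% were lower unadjusted. Cacng3 and Cacnb3, whose libraries are given above, had the smallest p, at -0.42 ± 0.12 (SE, adjusted p = 0.526) and -0.42 ± 0.14 (SE, adjusted p = 0.538) by edgeR. Leaving out 1 library gave calcium medians of -0.38 to -0.22 and sodium medians of 0.010 to 0.15. In the Cpeb1 knockout the medians were -0.36 for calcium and -0.00032 for sodium genes. Without Cpeb1 knockout replicate 1 they were -0.18 and -0.075, and without Cpeb1 knockout replicate 2 they were -0.47 and 0.072. Again edgeR called 0, with 13 lower unadjusted (12 calcium genes and Scn4b) where 0% of all genes were called and 7.07% were lower unadjusted. DESeq2 called Scn4b, and without Cpeb1 knockout replicate 2 edgeR called Cacna1a. In the double knockout the medians were -0.027 and 0.0015, no channel gene passed even unadjusted by edgeR, where 0.00753% of all genes were called and 4.23% passed unadjusted, and DESeq2 called 0. The smallest p belonged to Scn7a and Scn1a. RNA of Scn7a was 10.5 and 11.2 CPM for WT, 10.9 and 9.50 for the Fmr1, 10.4 and 10.1 for the Cpeb1 and 8.71 and 7.79 for the double knockout, with both double knockout libraries lowest, and -0.38 ± 0.20 (SE, adjusted p = 0.966) by edgeR. RNA of Scn1a was 539 and 435 CPM for WT, 448 and 482 for the Fmr1, 517 and 480.4 for the Cpeb1 and 461 and 383 for the double knockout, with the double knockout overlapping WT, and -0.21 ± 0.12 (SE, adjusted p = 0.966).

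The pooled comparison in the fit with the 4 genotypes as separate groups, given above, is also the test of interaction between the 2 knockouts. It is not a further test, and it does not ask whether the double knockout differs from WT. Cacng7 at -0.59 (edgeR adjusted p = 0.0416) and Cacng3 at -0.40 (edgeR adjusted p = 0.0466) passed, and no other channel gene did.

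Scn4b, the beta subunit tied to resurgent sodium current, was the gene with the smallest p in the Cpeb1 knockout against WT. Its RNA was 70.0 and 95.4 CPM for WT, 66.0 and 93.3 for the Fmr1, 50.0 and 42.5 for the Cpeb1 and 82.6 and 80.6 for the double knockout. Both Cpeb1 knockout libraries were below the other 6, the log2 change was -0.81 ± 0.18 (SE, adjusted p = 0.225) by edgeR, and DESeq2 gave an adjusted p of 0.0187. Cacng3 was next at -0.52 ± 0.12 (SE, adjusted p = 0.248) by edgeR. The authors' deposited table lists Scn4b as -0.53 (adjusted p = 0.00184) and also calls Cacna1a, at -0.36 (adjusted p = 0.0440), beside 1.62% of its genes. Scn4b is abundant in striatum, and the summed RNA of the 8 striatal markers was 505 and 315 CPM for the Cpeb1 knockout against 579 and 795 for WT, 607 and 673 for the Fmr1 and 625 and 709 for the double knockout. Their part in the Scn4b value was not tested. Footprints of Scn4b were 131 and 109 CPM for WT, 114 and 158 for the Fmr1, 149 and 147 for the Cpeb1 and 115 and 145 for the double knockout, so the Cpeb1 knockout was not the lowest there. The same held for summed footprints of the 8 striatal markers. These were 1189 and 1077 CPM for the Cpeb1 knockout, 1116 and 977 for WT, 1021 and 1197 for the Fmr1 and 1118 and 1274 for the double knockout.

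In footprints the called differences involved the double knockout. Scn1a and Cacna2d1 had fewer footprints and Cacnb1 more in the double knockout than in the Cpeb1 knockout. RNA was not tested for this pair of genotypes. In the RNA libraries given above, both double knockout libraries lay below both Cpeb1 knockout libraries for Scn1a and Cacna2d1, and above them for Cacnb1. Cacnb1 RNA was called lower in the pooled comparison of the single knockouts, an unlike comparison. Over all 13774 genes tested, 5.6% were called in that comparison, 2.61% lower and 3% higher, and 3 of the 37 channel genes were. Scn1a, the interneuron sodium channel whose loss causes Dravet syndrome, had 97.7 and 101 CPM for WT, 97.7 and 103 for the Fmr1, 111 and 113 for the Cpeb1 and 79.0 and 80.4 for the double knockout. Both double knockout libraries were below the other 6, and the change from the Cpeb1 knockout was -0.49 ± 0.077 (SE, adjusted p = 0.011) by edgeR. Cacna2d1, the most abundant alpha2delta subunit here, had 279 and 304 CPM for WT, 296 and 326 for the Fmr1, 323 and 323 for the Cpeb1 and 243 and 271 for the double knockout. The double knockout libraries were again the lowest 2, and the change was -0.33 ± 0.069 (SE, adjusted p = 0.0235). Cacnb1, a beta subunit shared by many pores, had 185 and 170.5 CPM for WT, 202 and 203 for the Fmr1, 168 and 175 for the Cpeb1 and 222 and 223 for the double knockout. Here the double knockout was the highest, and the change was 0.37 ± 0.073 (SE, adjusted p = 0.0191).

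Compared with WT, Cacnb1 was the 1 channel gene called in double knockout footprints, at 0.32 ± 0.073 (SE, adjusted p = 0.0398) by edgeR, with 2.65% of all genes called and 1.5% called higher. Cacnb1 was not called without the replicate term (edgeR adjusted p = 0.0736), nor in the fit of only these 2 genotypes. Scn1a just missed the threshold at -0.32 ± 0.077 (SE, adjusted p = 0.0504), and DESeq2 called it. The authors' deposited table calls both genes, where it calls 8.26% of its genes, Cacnb1 at 0.29 (adjusted p = 9.38e-04) and Scn1a at -0.27 (adjusted p = 0.00773). Cacna2d1 had -0.18 ± 0.069 (SE, adjusted p = 0.156). The next in order of p were Scn9a at -0.69 ± 0.33 (SE, adjusted p = 0.250), Cacna1a at 0.19 ± 0.09 (SE, adjusted p = 0.260), Cacng7 at 0.26 ± 0.13 (SE, adjusted p = 0.277), Scn3a at -0.19 ± 0.10 (SE, adjusted p = 0.310), Cacna1g at 0.20 ± 0.12 (SE, adjusted p = 0.354), Cacna1d at -0.18 ± 0.11 (SE, adjusted p = 0.377) and Cacng8 at 0.14 ± 0.11 (SE, adjusted p = 0.509), none called by edgeR. Scn9a rested on few counts, with 1.12 and 1.89 CPM for WT, 1.48 and 1.71 for the Fmr1, 1.44 and 1.74 for the Cpeb1 and 0.834 and 0.993 for the double knockout. Scn3a had 32.2 and 36.2 CPM for WT, 36.7 and 33.9 for the Fmr1, 39.4 and 35.8 for the Cpeb1 and 30.7 and 29.4 for the double knockout, and its double knockout libraries were the 2 lowest. Cacna1a had 111 and 107 CPM for WT, 111 and 127 for the Fmr1, 118 and 137 for the Cpeb1 and 113 and 136 for the double knockout, where the second library was the higher in every knockout. The T-type Cacna1g had 19.2 and 18.3 CPM for WT, 18.7 and 20.9 for the Fmr1, 20.5 and 22.3 for the Cpeb1 and 19.2 and 24.2 for the double knockout, and the lower double knockout library lay just above WT replicate 1. The L-type Cacna1d had 16.9 and 18.1 CPM for WT, 16.9 and 18.4 for the Fmr1, 16.6 and 16.9 for the Cpeb1 and 14.1 and 16.8 for the double knockout, with both double knockout libraries below those of WT and the Fmr1 knockout and 1 within the range of the Cpeb1 knockout. Cacng7 had 13.4 and 14.4 CPM for WT, 17.2 and 18.5 for the Fmr1, 13.3 and 18.7 for the Cpeb1 and 14.7 and 18.8 for the double knockout, with the lowest Cpeb1 knockout and WT libraries side by side. Cacng8 had 90.5 and 84.9 CPM for WT, 82.1 and 89.2 for the Fmr1, 70.0 and 92.8 for the Cpeb1 and 85.3 and 110.3 for the double knockout, a spread within the double knockout wider than its distance from WT.

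Compared with the Fmr1 knockout, the double knockout had 0 channel genes called by edgeR, 7 lower at an unadjusted p under 0.05, and 2 called by DESeq2, where edgeR called 0.334% of all genes and 8.25% were lower unadjusted. Those with the smallest p were again Scn1a, -0.33 ± 0.078 (SE, adjusted p = 0.0794) by edgeR, and Cacna2d1, -0.27 ± 0.069 (SE, adjusted p = 0.102), and edgeR called both when either WT library was left out. These 3 comparisons share the double knockout libraries. The calls of Scn1a, Cacna2d1 and Cacnb1 against the Cpeb1 knockout were lost when either library of either genotype was left out, with log2 changes of -0.51 to -0.48, -0.40 to -0.26 and 0.33 to 0.42. Without the replicate term Scn1a and Cacnb1 were called and Cacna2d1 was not (edgeR adjusted p = 0.062). Without WT replicate 1 that comparison had 7 calls, and without WT replicate 2 it had 6. The call of Cacnb1 against WT held in 1 of the 8 such fits, the one without WT replicate 1, with changes of 0.25 to 0.40 over all 8, and without that library Scn1a and Cacna1a were called too. Microglial marker sums in footprints were 15.3 to 20.2 CPM in the double knockout and 22.2 to 35.3 in the other genotypes, with 1 of the 4 called against WT and 1 against the Cpeb1 knockout. Astrocyte sums were 486 to 502 against 521 to 616 CPM, with 2 of the 5 called in each of these comparisons. Oligodendrocyte sums were 1733 to 1943 CPM in the double knockout, 2288 to 2438 in WT and 2148 to 2581 in the Cpeb1 knockout, with 1 of the 5 called in each, and overlapped those of the Fmr1 knockout at 1887 to 1938. Excitatory neuron sums were 1114 to 1179 CPM in the double knockout against 1058 to 1085 in WT and 1047 to 1086 in the Cpeb1 knockout, with 0 called. Interneuron marker sums were 1982 to 2022 against 2026 to 2089.7 CPM in the other genotypes, also without overlap, with 0 of the 5 called. Their part in the channel values was not tested.

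**Figure D3:**
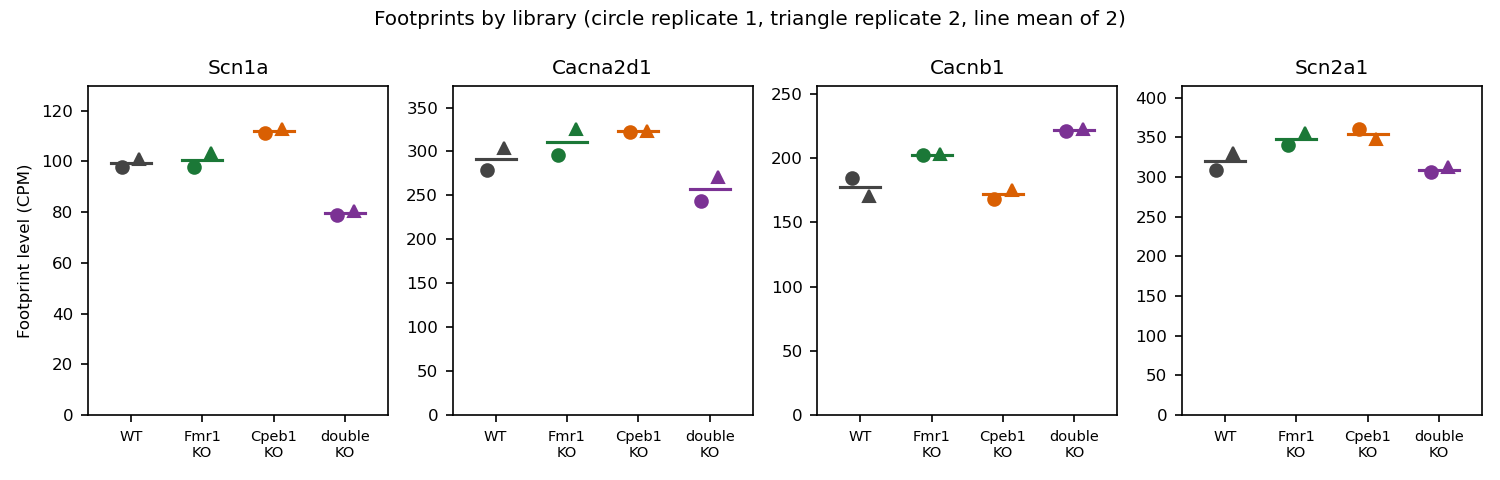
Footprint level (y axis, CPM, from 0) of Scn1a, Cacna2d1, Cacnb1 and Scn2a1 in each of the 8 footprint libraries, by genotype (x axis). Circles are replicate 1, triangles replicate 2 and lines the mean of 2; the double knockout is lowest for Scn1a at 79.0 and 80.4 CPM and highest for Cacnb1 at 222 and 223 CPM.

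The single knockouts showed no called footprint change in a channel gene. In the Fmr1 knockout against WT, edgeR called 0 of 37, with 2 higher at an unadjusted p under 0.05, and DESeq2 called 0, beside 0.0581% of all genes called by edgeR and 2.4% higher unadjusted. Those 2 genes were Cacng7 at 0.36 ± 0.13 (SE, adjusted p = 0.888) and Cacnb1 at 0.19 ± 0.072 (SE, adjusted p = 0.888) by edgeR. In the Cpeb1 knockout against WT the counts were 0, 4 and 0, beside 0.0799% of all genes called and 2.42% higher unadjusted. Cacna1a at 0.22 ± 0.089 (SE, adjusted p = 1.00) and Scn1a at 0.18 ± 0.076 (SE, adjusted p = 1.00) had the smallest p by edgeR. With the single knockouts set against the other 2 genotypes, edgeR and DESeq2 called 0 channel genes and 6 were higher unadjusted, beside 0% of all genes called by edgeR and 3.92% higher unadjusted. In that comparison 30 of 37 channel genes had values above 0, against 50.2% of all genes, with medians of 0.16 for sodium and 0.084 for calcium genes. Cacna2d1 at 0.21 ± 0.064 (SE, adjusted p = 0.711) and Scn2a1 at 0.16 ± 0.052 (SE, adjusted p = 0.711) had the smallest p by edgeR. Scn2a1 footprints were 309 and 331 CPM for WT, 306 and 312 for the double, 339.9 and 355 for the Fmr1 and 361 and 348 for the Cpeb1 knockout, with every single-knockout library above the other 4. Those of Scn2b were 124 and 128 CPM for WT, 127 and 126 for the double, 129.6 and 139.6 for the Fmr1 and 138 and 139 for the Cpeb1 knockout. These were the 2 genes whose single-knockout libraries were all above the others, where 3.06% of all genes did not overlap and 1.92% were higher without overlap. The 9 calcium genes lower in RNA had no common direction in footprints: 3 were lower and 4 higher in both sets of libraries. The summed excitatory neuron markers, which did not overlap in RNA, overlapped in footprints at 1047 to 1131 against 1058 to 1179 CPM.

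**Figure D4:**
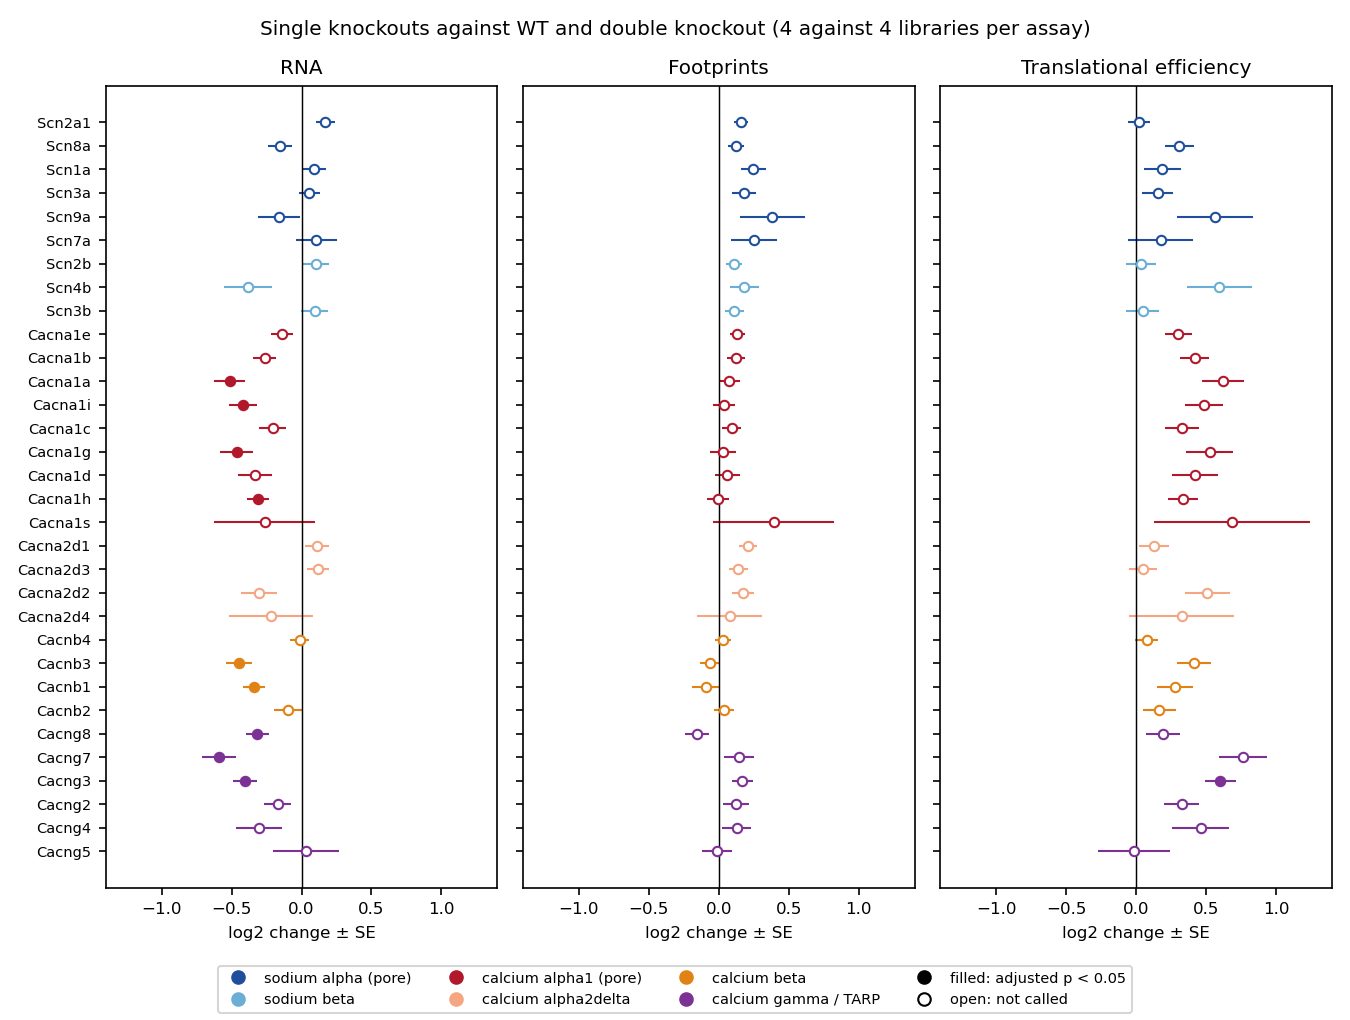
Log2 change ± SE of 32 of the 34 channel genes tested in RNA, for single knockouts minus the other 2 genotypes, in RNA, footprints and translational efficiency (4 against 4 libraries per assay; x axis log2 change, rows genes by role). Filled points passed an adjusted p of 0.05 in edgeR; the RNA panel holds 9 filled points, all calcium genes left of 0, the footprint panel none and the last panel 1, Cacng3.

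Translational efficiency, the change in footprints beyond that in RNA, was tested as an interaction of assay and genotype. Since it uses the same RNA libraries as above, it is not independent of the RNA result. For single knockouts against the other 2 genotypes, 32 of 34 channel genes had values above 0, against 51.6% of all genes, with medians of 0.34 for calcium, 0.18 for sodium and 0.0085 for all genes. Cacng3 was the 1 gene called, at 0.60 ± 0.11 (SE, adjusted p = 0.0382) by edgeR, where 0.184% of all genes were called. Its footprints were 32.7 and 38.0 CPM for WT, 33.4 and 34.7 for the double, 41.5 and 37.8 for the Fmr1 and 37.5 and 39.0 for the Cpeb1 knockout, without the lower values seen in RNA. Cacng7 had the next smallest p at 0.76 ± 0.17 (SE, adjusted p = 0.0749). Without the replicate term Cacng3 was not called (edgeR adjusted p = 0.219). With a gene length correction the medians were 0.28 for calcium and 0.099 for sodium genes. The Cacng3 call was kept in 1 of the 8 fits that left out 1 replicate of a genotype in both assays, the one without double knockout replicate 2, in which 6 channel genes were called.

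In each knockout against WT, edgeR called 0 of 34 channel genes for translational efficiency, and DESeq2 called 0, 1 and 0 for the Fmr1, Cpeb1 and double knockout. At an unadjusted p under 0.05 edgeR had 9 and 12 higher in the Fmr1 and Cpeb1 knockouts and 1 lower in the double knockout, where 5.38%, 6.74% and 1.97% of all genes passed in those directions and 0.0154%, 0% and 0.00768% were called. The genes with the smallest p were Cacng3 at 0.62 ± 0.16 (SE, adjusted p = 0.470) and Cacnb1 at 0.47 ± 0.13 (SE, adjusted p = 0.479) in the Fmr1 knockout, Scn4b at 1.12 ± 0.25 (SE, adjusted p = 0.292) and Cacng3 at 0.66 ± 0.16 (SE, adjusted p = 0.304) in the Cpeb1 knockout, and Scn9a at -0.93 ± 0.38 (SE, adjusted p = 1.00) and Cacnb1 at 0.24 ± 0.13 (SE, adjusted p = 1.00) in the double knockout, all by edgeR. The authors' deposited table, made with Xtail, calls 7 channel genes higher with Fmr1 missing, 8 with Cpeb1 missing and 0 with both, where it calls 2.96%, 2.47% and 0.152% of its genes. In the Fmr1 knockout these are Cacna1a, Cacna1e, Cacna1i, Cacnb1, Cacnb3, Cacng3 and Cacng7. In the Cpeb1 knockout they are Cacna1a, Cacna1b, Cacna1g, Cacna1i, Cacna2d2, Cacng3, Cacng7 and Scn4b, with the largest value for Scn4b, 0.998 on the log2 scale.

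Genes whose proteins anchor, modify or accompany these channels were counted from a list of 27. In RNA of the single knockouts against the other 2 genotypes, 5 of them fell and 1 rose by edgeR, where 5.09% of all genes fell and 2.22% rose. Those lower were Stac2, an adaptor of L-type channels, at -0.74, the pacemaker channel Hcn2 at -0.51, the active-zone protein Rimbp2 at -0.40, and the node and initial segment scaffolds Sptbn4 at -0.37 and Nfasc at -0.36. The calmodulin gene Calm2 was higher, at 0.33. The list's median was -0.036. In footprints of the double knockout against WT, 2 of the 27 rose, Rem2, a GTPase that restrains calcium channels, at 0.57 and Sptbn4 at 0.39, where 1.5% of all genes rose. Against the Cpeb1 knockout, 6 were called, 3 in each direction, where 3% of all genes were called higher and 2.61% lower. Sptbn4 at 0.44, Calm3 at 0.37 and Rem2 at 0.48 were higher, and those lower included Nrcam at -0.31 and the sodium leak channel Nalcn at -0.33.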

How the data were processed

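RNA-seq and ribosome profiling libraries of mouse cortex (8 each, 2 per genotype) were analysed from the deposited gene tables. Per the submitters' processing notes, the authors used cutadapt, Bowtie2, TopHat2, RSEM and DESeq2 with the mm10 build; versions and settings are not given in the sources used here. The deposited tables hold RSEM expected counts, which were rounded and tested, and TPM and FPKM scaled by the authors per library, of which TPM was used for levels. Listed lengths are coding lengths: 99.6% of genes with 1 transcript have a multiple of 3, and footprint lengths are 57 nt shorter. The authors' deposited comparison tables give a mean signal (baseMean), log2 fold changes, p-values and adjusted p-values from DESeq2, or Xtail for translational efficiency, per the series' design text. Reads from overlapping or antisense genes and isoforms were split by the authors' RSEM run and cannot be separated here.

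Tests used edgeR 4.0.16 (R 4.3.3): filterByExpr with a minimum count of 10, TMM, glmQLFit and glmQLFTest, with genotype and replicate number as terms, all 8 libraries of an assay in each fit (all 16 for translational efficiency), and Benjamini-Hochberg adjustment over all genes tested; a gene was called at an adjusted p under 0.05. Log2 values and CPM, which are TMM-scaled, come from these fits. Alternatives were no replicate term, DESeq2 1.42.0, RLE size factors, no count filter, a gene length correction, other sets of genotypes in the fit, a prior count of 0.125, counts per kilobase, and leaving out each library. The code was tested on simulated counts. Full values are given for called genes, the 10 with the smallest p in pooled RNA and in double knockout footprints, the 2 smallest elsewhere, and the 2 most abundant of each role. Some genes and a sequence that this rule or the lists cover are not reported here. Members and lists were chosen with earlier results of these data known.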

Additional observations from a re-analysis of the deposited data

Results flagged for a closer look

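Cacng8 RNA had 1 library apart from the others of its group. Among the 4 single-knockout libraries, 93.7 and 94.1 CPM in the Fmr1 knockout and 92.5 CPM in Cpeb1 knockout replicate 2 lay close together and Cpeb1 knockout replicate 1 was at 80.1, a gap of 0.884 of the group's range, more than Dixon's 95% critical value. In 20 such groups tested, chance gives about 1 flag in 20.

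For Cacng7 and Cacng3 the effect of losing 1 gene differed with the state of the other, in the fit already given above. In the fit of 4 genotypes, the change with 1 knockout against 0 or 2 was -0.59 on the log2 scale for Cacng7 RNA (edgeR adjusted p = 0.0416) and -0.40 for Cacng3 RNA (edgeR adjusted p = 0.0466).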

How the results depend on the processing

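Counts of called channel genes that moved by more than 1.5 times are as follows. For RNA of the single knockouts against the other 2 genotypes, 9 became 2 (Cacna1a and Cacna1i) without the replicate block and 2 (Cacng3 and Cacng7) with the 4 genotypes as separate groups; it was 9 to 12 with DESeq2, RLE, length correction or no filter. Fits of only the 2 genotypes compared gave 6 for RNA of the Fmr1 knockout against WT, where the fit of all libraries gave 0, and 1 for the Cpeb1 knockout, and in double knockout footprints 0 against WT, 5 against the Cpeb1 and 2 against the Fmr1 knockout. DESeq2 gave 1 for RNA of the Cpeb1 knockout, 2 for footprints of the double knockout against WT and 2 against the Fmr1 knockout, 1 for translational efficiency in the Cpeb1 knockout and 4 in the pooled comparison. No count filter gave 2 for footprints of the double knockout against WT. Without the replicate block that count was 0, pooled translational efficiency was 0, and the footprint count against the Cpeb1 knockout was 2; with 4 separate genotypes pooled translational efficiency was 0. The cause was not tested. Same-numbered libraries deviated together in part (correlations -0.045 to 0.29 in RNA and -0.075 to 0.33 in footprints, 6 genotype pairs each), and the labels do not say whether they share an animal, litter or day. In both assays the highest value was that of the Fmr1 with the Cpeb1 knockout, which the pooled comparison joins. In RNA, WT had 0.21 with the Fmr1 and 0.18 with the double knockout, and the remaining pairs -0.045 to 0.041. In footprints every pair with WT was below 0. Replicate number was kept as a term in every fit unless stated otherwise. Leaving out 1 library gave 0 to 11 calls in pooled RNA, 0 to 1 in RNA of the Cpeb1 knockout, 0 to 7, 0 to 2 and 0 to 3 in double knockout footprints against Cpeb1 knockout, Fmr1 knockout and WT libraries, 0 to 6 in pooled translational efficiency, and 0 to 0 in the other 8 comparisons. Among single genes 1 value turned sign: Cacng8 footprints in the double knockout against WT were -0.049 without WT replicate 2 (edgeR adjusted p = 0.874) and 0.34 without WT replicate 1. With 2 libraries a group and at most 10246479 counts in an RNA library, genes near 1 TPM were not measured precisely enough to compare.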
